A study of Arabidopsis thaliana with 20 samples.

Results

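The chloroplast keeps a small genome of its own, and the transcripts of its genes were followed here in ageing Arabidopsis thaliana rosette leaves. The members were all loci whose identifier begins with ATCG, the code of the plastid genome, and there were 133 of them among 37336 counted loci. A further 152 loci were mitochondrial and 37051 nuclear. The leaves came from Col-0 wild-type plants and from the snrk2.4/snrk2.10 double mutant in the same ecotype, in which 2 related protein kinase genes of the SnRK2 subfamily are mutated. All plants were grown in long days, and leaves were taken at 25 or at 45 days after sowing (DAS), which gave 4 groups of 5 libraries. The labels do not give the mutant alleles, or whether the 5 libraries of a group came from separate plants or pools, so p-values measure the spread between these libraries.

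A plastid holds the genes for core subunits of both photosystems, the cytochrome b6f complex, the ATP synthase, the large subunit of Rubisco, an NADH dehydrogenase-like complex, ribosomal proteins, and its own RNA polymerase, ribosomal RNAs and tRNAs. The other subunits of the same complexes are encoded in the nucleus and imported, so that each complex needs transcripts from both genomes. In senescing leaves chloroplasts are dismantled and their proteins are broken down for export. Plastid transcripts, unlike nuclear mRNAs, do not carry a stable poly(A) tail, and short tails added to them mark RNA for decay. The libraries were primed with oligo(dT), so a plastid count may stem from a tailed molecule or from a stretch of A within a transcript, and levels may reflect either.

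The sources used here pair few ATCG identifiers with a gene. Notes on related nuclear genes in the RefSeq annotation name 6 of the 133. These are ATCG00430 (photosystem II reaction center protein G), ATCG00530 (a CemA-like protein), ATCG00660 and ATCG00750 (ribosomal proteins L20 and S11), ATCG00670 (the plastid-encoded CLP P, a subunit of the Clp protease that degrades plastid proteins) and ATCG01310 (ribosomal protein L2). These names are those of the notes and were not checked against the plastid gene annotation. The other members are given by identifier only. To show the kind of internal sequence that an oligo(dT) primer could meet, the longest run of A in the RefSeq clpP gene (build TAIR10.1, plastid genome, minus strand, sense strand printed) is given with 8 bases on either side, with the run in capitals.
clpP: cacaccgtAAAAAAAAAAAAAgacacttt
That run of 13 lies at positions 1467 to 1479 of the 1973 bases of the gene. The whole gene span was searched, without removing introns, so whether the run remains in the spliced transcript was not examined. The longest runs in the genes for L20, S11 and CemA were 7, 7 and 6. Runs of at least 8 were present in 22 of the 83 protein-coding plastid gene entries (26.5%) and in 29.3% of nuclear ones. These were whole gene spans too, with a median length of 606 bases for plastid and 2078 for nuclear entries. The percentages are therefore not rates per base and do not compare the density of such runs. Where within a gene the reads began cannot be read from counts per locus.

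Library totals ran from 615317 to 2343212 counts, of which 14570 to 156593 were plastid. SNRK2.4 stood between 19.3 and 114.5 CPM (counts scaled to a common total, here the plain library total) in the wild type and between 1.28 and 6.50 in the mutant. At 45 DAS SNRK2.10 had 77.6 to 108.2 CPM in wild-type and 32.4 to 45.4 in mutant libraries, and the genotypes overlapped at 25 DAS. The leaf markers CAB1, CA1, RBCS1A, RCA and GAPA were counted in every library, while the root, flower and seed markers averaged 5.71 CPM or less in every group. In WT_45d replicate 3 the mitochondrial share was 0.470% of all counts, against 0.0874% to 0.142% in the others of its group.

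Of the 133 plastid loci, 34 had no count in any library and 23 had counts with a mean under 10 per library. The remaining 76 had a mean of at least 10 and also passed the filter on low counts, and these are called well-counted. Another 3 passed that filter with a lower mean, which made 79 tested loci. Loci can enter through the group where they are high, so the counts below describe those that entered and not the plastid genome as a whole. The empty loci cluster by number. Between ATCG00830 and ATCG01000, 17 of 19 loci had no counts, and from ATCG01140 upwards 17 of 18 had none, ranges chosen after the values were seen. Together both ranges held 6 counts in 20 libraries. ATCG01310, for L2, is among them with 1 count, and RefSeq lists rpl2 at 2 places of the plastid genome. Of the 127 plastid gene entries in RefSeq, 30 have a sequence that occurs there more than once (15 sequences). How reads that match several places were counted is not given in the sources used here.

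The plastid share of all counts was lower at 45 than at 25 DAS in both genotypes. At 25 DAS it was 5.71%, 6.68%, 7.33%, 6.43% and 6.21% in the wild type and 6.51%, 7.30%, 7.17%, 5.30% and 5.90% in the mutant, in replicate order. At 45 DAS it was 3.36%, 2.00%, 2.29%, 2.09% and 1.36% in the wild type and 3.50%, 3.15%, 2.46%, 2.65% and 3.47% in the mutant. Every library of 45 DAS lay below every library of 25 DAS. The genotypes overlapped at both ages. Group means were 6.47% ± 0.598 (SD, n = 5) and 6.44% ± 0.847 (SD, n = 5) at 25 DAS for wild type and mutant, and 2.22% ± 0.728 (SD, n = 5) and 3.05% ± 0.476 (SD, n = 5) at 45 DAS. No test was made of this sum over chosen loci. The exact 95% binomial intervals, which cover counting error only, were narrow, such as 1.34% to 1.38% for the lowest library. A share also depends on the counts of all other loci, so it gives no absolute amount of plastid RNA. Fewer cells or plastids, less RNA in each and more counts from other loci cannot be told apart in bulk leaves.

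Counts of 38 nuclear genes for subunits of the photosystems, cytochrome b6f, ATP synthase, Rubisco and the NADH dehydrogenase-like complex took a share that was lower by a larger factor. They took 14.4% ± 0.229 (SD, n = 5) of all counts in the wild type and 14.2% ± 0.387 (SD, n = 5) in the mutant at 25 DAS. At 45 DAS they took 1.56% ± 0.827 (SD, n = 5) and 2.97% ± 0.268 (SD, n = 5). The number of plastid counts per count of these nuclear genes was therefore 0.448 ± 0.0464 (SD, n = 5) in the young wild type and 1.55 ± 0.335 (SD, n = 5) in the old. In the mutant it was 0.451 ± 0.0515 (SD, n = 5) and 1.03 ± 0.171 (SD, n = 5). At 45 DAS this ratio ran from 1.16 to 1.93 in the wild type and from 0.873 to 1.26 in the mutant, so that the genotypes overlapped. Among the wild-type libraries of 45 DAS, replicate 1 had the highest share of both kinds (3.36% plastid, 2.91% nuclear) and replicate 5 the lowest of both (1.36% and 0.705%).

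**Figure D1:**
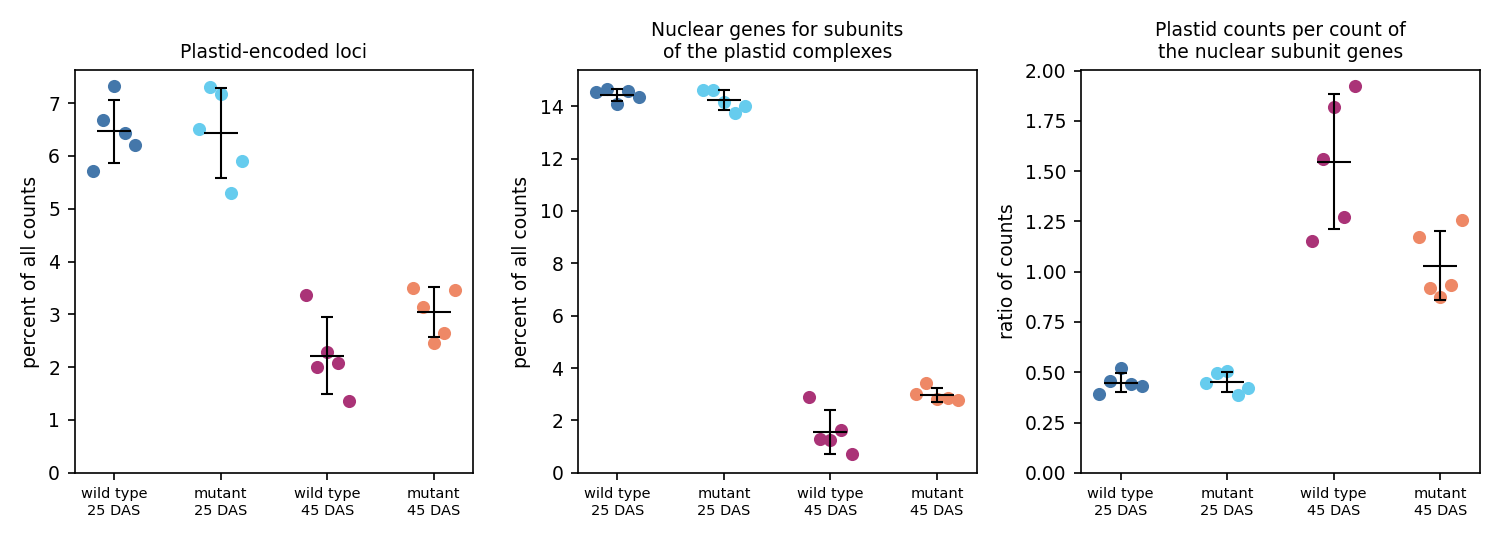
Share of all counts from plastid loci (left, percent), share from 38 nuclear subunit genes (middle, percent) and the ratio of the first to the second (right), with 1 point per library and bars at the mean ± SD of 5 libraries per group. Both shares are lower in every library of 45 DAS than in any of 25 DAS, while the ratio is higher there.

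Counts were concentrated in few loci. The 12 with the highest mean level held 74.0% of the 1375316 plastid counts, and ATCG00220 and ATCG00470 held 10.9% and 10.2%. These are counts, not corrected for transcript length, so no order of transcript abundance is drawn from them. For tests, each library was scaled to all loci (TMM), levels are in CPM on that scale, and fold changes are log2 with a standard error (SE). A locus is called where its adjusted p (edgeR quasi-likelihood test, Benjamini-Hochberg over 14503 tested loci) is under 0.05.

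From 25 to 45 DAS in the wild type, 72 of the 76 well-counted loci fell and none rose. Of all tested loci 34.5% were called lower and 36.1% higher. The median change of the well-counted loci was -2.44, and that of all tested loci 0.07. In the mutant 67 of 76 fell and none rose, with 34.6% of all tested loci called lower and 35.4% higher, and the medians were -1.94 and 0.06. Of the 76, 67 were called lower in both genotypes, 5 in the wild type only and 4 in neither. The 3 tested loci with lower means (ATCG00400, ATCG01060 and ATCG01110) were called lower in both. Libraries of the younger and older leaves did not overlap for 71 of 76 loci in the wild type (28.6% of all tested loci were lower without overlap) and for 59 in the mutant (29.5%).

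The size of this change moved with the scaling, while nearly all called loci kept its direction. TMM centres the bulk of loci, and with plain library totals the median of all tested loci moved to 0.72 in the wild type and 0.75 in the mutant. On that scale 72 of 73 called plastid loci in the wild type, and 59 of 61 in the mutant, were still lower at 45 DAS. The exceptions were ATCG00270 in the wild type (0.74) and ATCG00020 (1.01) and ATCG00350 (0.80) in the mutant, none of which was called under TMM. Some age calls made under TMM were lost with library totals. Among the named loci these were ATCG00110, ATCG00220, ATCG00330, ATCG00430, ATCG00670 and ATCG00730 in the mutant, and ATCG00500 and ATCG00680 in the wild type. For ATCG00220 the adjusted p (edgeR) was then 0.1355.

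ATCG00450 had the largest fall in the wild type. Its levels at 25 DAS were 90.8, 133.3, 107.0, 89.7 and 92.6 CPM in the wild type and 103.6, 125.1, 116.0, 76.7 and 80.2 in the mutant. At 45 DAS they were 4.89, 5.52, 6.02, 1.76 and 5.16 CPM in the wild type and 11.5, 5.55, 12.5, 8.91 and 9.25 in the mutant. All libraries of 45 DAS lay far below all of 25 DAS. In the old wild type 3 counts correspond to 2.45 to 4.71 CPM of the library total. Those levels, and the size of the wild-type fall, thus rest on few counts. The change was -4.45 (SE 0.24, adjusted p = 2.09e-14) in the wild type, or 21.8-fold lower, and -3.42 (SE 0.21, adjusted p = 1.99e-13) in the mutant. ATCG01130, among the most counted loci, fell by 4.14 (SE 0.27) in the wild type and by 3.84 (SE 0.26) in the mutant. Its levels went from 2457 to 4403 CPM in the young wild type down to 121.5 to 345.6 in the old, and in the mutant from 4078 to 4946 down to 240.1 to 499.6. ATCG01010 changed by -4.20 (SE 0.36) in the wild type and by -3.08 (SE 0.33) in the mutant. In the mutant the largest falls after ATCG01130 were those of ATCG00050 (-3.53, SE 0.50) and ATCG00200 (-3.50, SE 0.28), both of low count, with 11 and 31 counts over the 5 mutant libraries of 45 DAS.

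The most counted locus, ATCG00220, gave smaller estimates, and their difference from those of other loci was not tested. It stood at 9112, 8078, 8668, 8408 and 8401 CPM in the young wild type and at 7115, 8913, 7779, 6865 and 7241 in the young mutant. At 45 DAS it stood at 2777, 2247, 2003, 2295 and 1714 CPM in the wild type and at 4172, 3556, 3682, 4017 and 3922 in the mutant. The 4 groups separate by age, and at 45 DAS also by genotype. The change with age was -1.95 (SE 0.16, adjusted p = 5.99e-11) in the wild type and -0.97 (SE 0.16, adjusted p = 6.06e-06) in the mutant. ATCG00330 changed by -1.45 (SE 0.23) and -1.02 (SE 0.22) in wild type and mutant, and ATCG00340 by -1.71 (SE 0.22) and -1.53 (SE 0.22). ATCG00470, with a mean of 8152 ± 1649 CPM (SD, n = 5) in the young and 1197 ± 550 CPM (SD, n = 5) in the old wild type, changed by -2.77 (SE 0.28) and -2.38 (SE 0.27). The remaining loci among the 12 most counted that were called (ATCG01050, ATCG00440, ATCG01020, ATCG00740, ATCG00030 and ATCG01040) changed by between -3.69 and -1.82 in the wild type and between -3.26 and -1.80 in the mutant.

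Under TMM the loci with a name were called lower at 45 DAS in both genotypes, apart from ATCG01310 with its single count. They are described because a source names them, a choice made after their values were seen. ATCG00430, named photosystem II protein G in a note, changed by -2.78 (SE 0.40, adjusted p = 5.66e-06) in the wild type and -1.45 (SE 0.36, adjusted p = 0.0015) in the mutant. The CLP P gene, ATCG00670, changed by -1.58 (SE 0.29) and -1.17 (SE 0.28), and the CemA-like ATCG00530 by -2.40 (SE 0.36) and -1.72 (SE 0.35). The ribosomal protein genes ATCG00660 (L20) and ATCG00750 (S11) changed by -2.30 (SE 0.41) and -3.01 (SE 0.33) in the wild type and by -2.47 (SE 0.39) and -2.41 (SE 0.28) in the mutant. For ATCG00750 the wild-type libraries of 45 DAS ran from 1.20 to 8.97 CPM, where 3 counts correspond to 2.45 to 4.71 CPM.

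A few loci did not pass the test with age. ATCG00020 stood at 360.4, 843.6, 821.7, 589.7 and 530.8 CPM in the young wild type and at 588.6, 600.5, 576.5, 278.3 and 278.6 in the young mutant. At 45 DAS it stood at 401.0, 523.0, 765.6, 587.7 and 433.1 CPM in the wild type and at 770.7, 388.8, 455.2, 498.7 and 754.8 in the mutant. The 4 groups overlapped throughout, and the estimates were -0.22 (SE 0.28, adjusted p = 0.497) and 0.30 (SE 0.28, adjusted p = 0.338). ATCG00270 gave 0.08 (SE 0.30) and -0.20 (SE 0.29), and ATCG00350 gave -0.15 (SE 0.35) and 0.12 (SE 0.36), in wild type and mutant. In the mutant alone ATCG00120, ATCG00420, ATCG00490, ATCG00500 and ATCG00680 also missed the threshold, with estimates from -1.20 to -0.41. For ATCG00490 that estimate rested on mut_45d replicate 5, which read 493.0 CPM where the other 4 read 28.2 to 87.3. Without it the change was -1.99 (adjusted p = 0.000164) in place of -0.62 (adjusted p = 0.384). ATCG00120, ATCG00420, ATCG00500 and ATCG00680 were also each called lower in the mutant under an alternative, so missing the threshold depended on the setting.

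Among the 12 most counted loci, ATCG00630 had the highest coefficient of variation in each of the 4 groups. Its levels were 1707, 5152, 919.8, 1161 and 702.4 CPM in the young wild type and 384.6, 961.3, 688.0, 2255 and 639.4 in the young mutant. At 45 DAS they were 3723, 75.7, 103.5, 60.0 and 28.7 CPM in the wild type and 1089, 98.3, 157.8, 685.2 and 88.6 in the mutant. The groups overlapped, and replicate 2 of the young wild type, replicate 4 of the young mutant, replicate 1 of the old wild type and replicates 1 and 4 of the old mutant stood well above the rest of their groups. The estimates with age were -1.27 (SE 1.18) and -1.21 (SE 1.18), and those for genotype -0.97 (SE 1.17) at 25 DAS and -0.91 (SE 1.17) at 45 DAS, none of them called. Without WT_45d replicate 1 the genotype estimate at 45 DAS turned to 2.76 (adjusted p = 0.0512). As a group, plastid loci varied more between replicates than loci in general. The common biological coefficient of variation within a group was 25.1%, 33.4%, 42.5% and 40.8% over plastid loci in the young wild type, young mutant, old wild type and old mutant, while over all tested loci it was 13.3%, 30.0% and 19.2% in the last 3 of these and lower still in the young wild type.

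**Figure D2:**
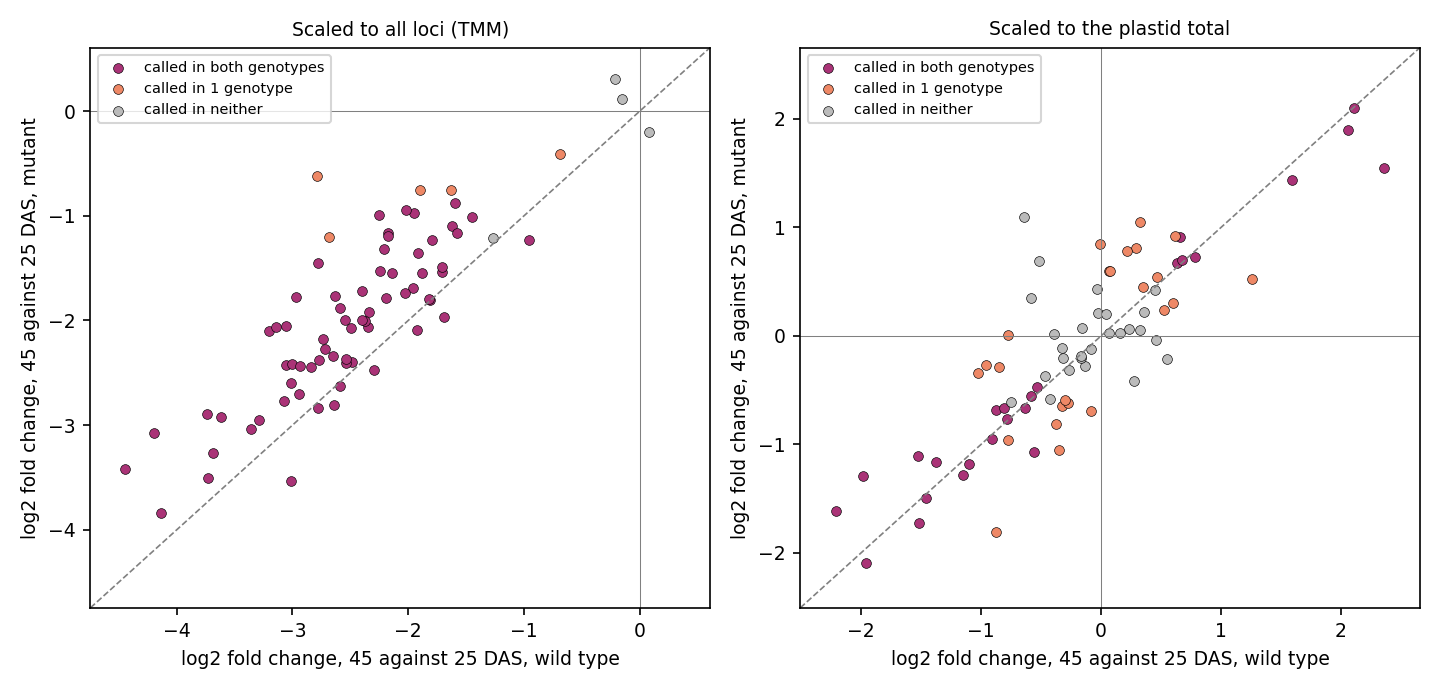
Log2 fold change from 25 to 45 DAS in the wild type (x) and in the mutant (y) for 76 well-counted plastid loci, scaled to all loci (left) or to the plastid total (right), with colours for the number of genotypes in which a locus was called and a dashed line of equal change. On the left 67 loci are called lower in both genotypes and most points lie above the line. On the right loci lie on both sides of 0.

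Plastid loci did not fall in step. To see which moved apart from the others, libraries were scaled to the sum of their plastid counts, so that a rise means a larger share of plastid counts and not a higher level in the leaf. In WT_45d replicate 1, ATCG00630 held 14.1% of that sum, against 0.235% to 0.590% in the other old wild-type libraries. This lowers the share of every other locus in that library, and a fit without ATCG00630 in the sum was not run. In the wild type 11 loci gained and 21 lost share with age, where 90.6% of all tested loci were called in either direction on this scale. In the mutant 17 of 76 gained and 25 lost share, where 88.0% of all tested loci were called. The median of all tested loci moved with this scaling, to 2.34 in the wild type and 1.82 in the mutant. Those percentages are therefore no background for plastid loci. By edgeR, 32 of the 76 in the wild type and 42 in the mutant had an unadjusted p under 0.05. The adjustment over all loci thus did little here. ATCG00020 went from 0.756% ± 0.190 (SD, n = 5) to 3.27% ± 1.05 (SD, n = 5) of plastid counts in the wild type and from 0.545% ± 0.138 (SD, n = 5) to 2.34% ± 0.487 (SD, n = 5) in the mutant. Neither genotype had an overlap between ages, and the changes were 2.11 (SE 0.25, adjusted p = 3.36e-09) and 2.10 (SE 0.25, adjusted p = 5.44e-09). ATCG00270 gained 2.36 (SE 0.26) and 1.55 (SE 0.25), ATCG00350 2.05 (SE 0.33) and 1.90 (SE 0.33), and ATCG00500 1.60 (SE 0.24) and 1.44 (SE 0.24), in wild type and mutant. ATCG00330 rose from 8.99% ± 1.30 (SD, n = 5) to 15.5% ± 1.28 (SD, n = 5) of plastid counts in the wild type and from 8.62% ± 0.660 (SD, n = 5) to 14.3% ± 2.94 (SD, n = 5) in the mutant. The CLP P gene ATCG00670 gained 0.68 (SE 0.24, adjusted p = 0.00893) and 0.70 (SE 0.23, adjusted p = 0.0064). At the other end ATCG00450 changed by -2.21 (SE 0.29) and -1.61 (SE 0.25). ATCG01130 went from 4.53% ± 0.858 (SD, n = 5) to 1.16% ± 0.168 (SD, n = 5) in the wild type and from 5.47% ± 0.831 (SD, n = 5) to 1.28% ± 0.320 (SD, n = 5) in the mutant.

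At 25 DAS no plastid locus was called between the genotypes by edgeR, against 3.16% of all tested loci. Of the 76, 2 had an unadjusted p under 0.05, and DESeq2 also called 0. With mut_25d replicate 4 left out 1 was called, and with only those groups in the fit 1. The smallest adjusted p was 0.257, for ATCG00500, with 451.1, 606.6, 617.5, 383.2 and 370.4 CPM in the wild type and 1014, 1031, 846.6, 312.2 and 523.8 in the mutant. Those groups overlapped, and the estimate was 0.61 (SE 0.27). The estimates of the 76 ran from -0.97 to 0.69 with a median of 0.06, beside 0.03 over all tested loci.

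At 45 DAS 15 of the 76 loci were higher in the mutant and none lower, while 5.05% of all tested loci were called higher and 4.88% lower. The median of the 76 was 0.57 and that of all tested loci 0.0005, and 68 of the 76 estimates were above 0. Scaled to the plastid total, 45 of the 76 were above 0. The loci come from the same libraries, so these signs are not separate observations. Of the 15, 10 did not overlap between the genotypes (2.98% of all tested loci were higher without overlap). They were ATCG00110, ATCG00120, ATCG00220, ATCG00440, ATCG00500, ATCG00550, ATCG00560, ATCG00650, ATCG00720 and ATCG00730. The count moved with single wild-type libraries. It was 29 without WT_45d replicate 1, 10 without replicate 3 and 9 without replicate 2 or replicate 5, and 9 with only those groups in the fit or with a variance for each group.

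Calls for 7 loci held in each of the 30 alternatives run, which were ATCG00220, ATCG00440, ATCG00550, ATCG00650, ATCG00720, ATCG00730 and ATCG01090. ATCG00550 had the smallest p. At 45 DAS it stood at 113.3, 90.7, 85.5, 97.1 and 71.4 CPM in the wild type and at 190.8, 182.0, 138.7, 171.6 and 161.3 in the mutant, with no overlap. It was 1.85-fold higher in the mutant, a log2 change of 0.88 (SE 0.12, adjusted p = 8.97e-05). At 25 DAS it stood at 444.6, 401.1, 407.6, 444.3 and 370.4 CPM in the wild type and had a mean of 379.0 ± 24.9 CPM (SD, n = 5) in the mutant. ATCG00440 stood at 955.2, 403.9, 388.8, 653.0 and 386.0 CPM in the old wild type and at 1188, 1168, 1129, 1109 and 1318 in the old mutant. Its mutant libraries were close together and above every wild-type library, and the change was 1.08 (SE 0.21, adjusted p = 0.00159). ATCG00220, with the values given above, was 1.75-fold higher (0.81, SE 0.16, adjusted p = 0.00176). ATCG01090 stood at 252.7, 137.3, 157.7, 117.4 and 105.3 CPM in the old wild type and at 395.8, 364.5, 182.8, 459.0 and 342.4 in the old mutant. Only mutant replicate 3 came down among the wild-type values, and the change was 1.18 (SE 0.24, adjusted p = 0.00243). ATCG00650, ATCG00720 and ATCG00730 were higher by 0.82 (SE 0.20), 0.89 (SE 0.22) and 0.96 (SE 0.20).

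The largest called estimates at 45 DAS were those of ATCG00420, ATCG00120 and ATCG00110. ATCG00420 stood at 53.8, 14.2, 13.2, 22.1 and 19.9 CPM in the wild type and at 59.2, 49.6, 78.9, 301.6 and 71.4 in the mutant. Its change of 2.17 (SE 0.64, adjusted p = 0.0392) became 1.36 (adjusted p = 0.154) without mut_45d replicate 4. The call was lost in 9 of 30 alternatives (adjusted p up to 0.253), also without WT_45d replicate 2, 3, 4 or 5. The reference lists a nuclear pseudogene of ATCG00420, AT4G13285, which had 0 counts in every library. ATCG00120 stood at 35.0, 10.3, 15.6, 23.8 and 22.8 CPM in the wild type and at 75.1, 48.3, 53.2, 44.5 and 186.4 in the mutant, a change of 1.84 (SE 0.48, adjusted p = 0.0225). That call was lost in 5 of 30 alternatives (adjusted p up to 0.155), among them leaving out WT_45d replicate 2, 3 or 5. ATCG00110, at 6.18 to 17.1 CPM in the wild type and 29.5 to 46.6 in the mutant, was higher by 1.76 (SE 0.45, adjusted p = 0.0176), a call lost without WT_45d replicate 5 (adjusted p = 0.0596) and with a variance for each group (0.195). The others called were ATCG00740 (0.77), ATCG00560 (0.82), ATCG00500 (0.89), ATCG00450 (0.98) and ATCG00580 (1.10). The call of ATCG00560 was lost in 1 of 30 alternatives, with only those groups in the fit (adjusted p = 0.06). That of ATCG00740 was lost in 5 of 30 (adjusted p up to 0.103), including those without WT_45d replicate 2 or 3 or mut_45d replicate 2 or 5. That of ATCG00580 was lost in 7 of 29 (up to 0.176), including those without WT_45d replicate 2, 3, 4 or 5 or mut_45d replicate 1. That of ATCG00450 was lost in 10 of 29 (up to 0.331) and that of ATCG00500 in 11 of 30 (up to 0.15), in each case including 7 left-out libraries. ATCG00430, named photosystem II protein G in a note, gave 1.28 (SE 0.40, adjusted p = 0.0541). It stood at 39.1, 26.0, 19.3, 22.1 and 8.84 CPM in the wild type and at 70.7, 49.1, 27.4, 90.8 and 37.0 in the mutant.

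**Figure D3:**
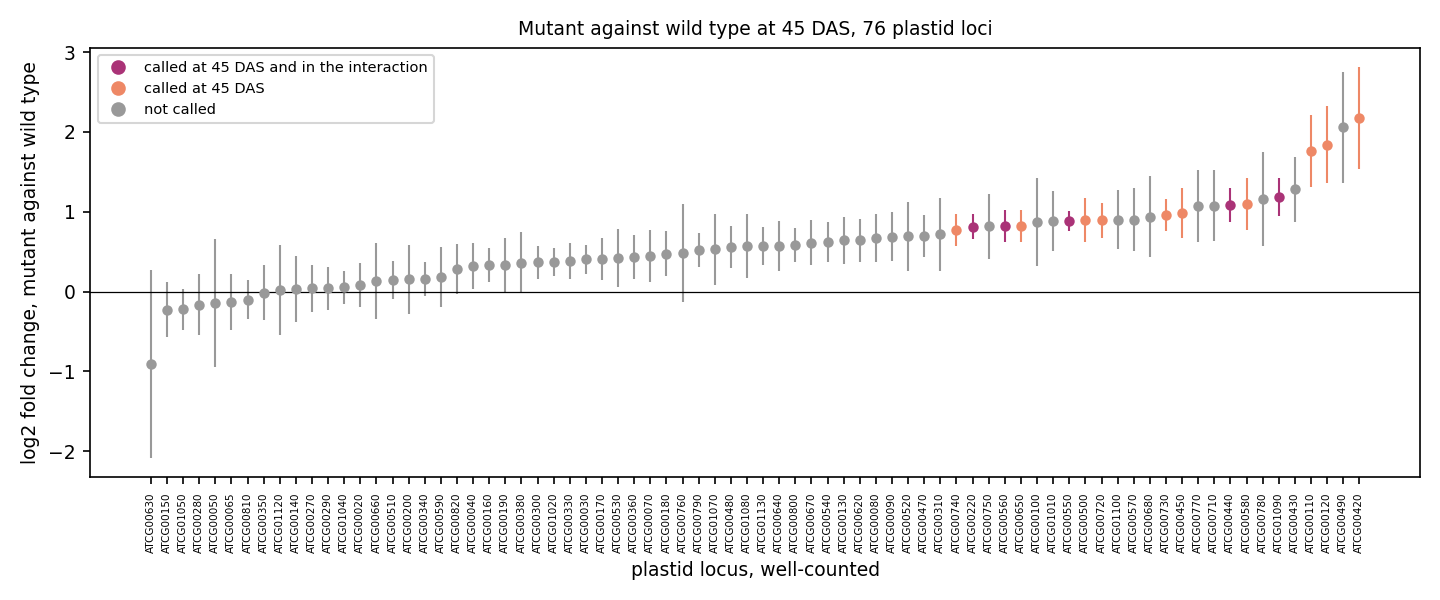
Log2 fold change of the mutant against the wild type at 45 DAS for each of the 76 well-counted plastid loci, in order of size, with bars of 1 SE from the edgeR fit and colours for calls. Of the 76 estimates 68 are above 0 and 15 are called, 5 of them also in the genotype by age interaction.

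The fall with age was larger in the wild type for 67 of the 76 loci by its estimate. Scaled to the plastid total, the estimated change was higher in the mutant than in the wild type for 37 of the 76. The difference between genotypes on the scale of all loci was tested as the genotype by age interaction. It was called for 5 loci, all with a smaller fall in the mutant (1.83% of all tested loci were called in that direction and 1.37% in the other), and its median was 0.42 over the 76 and 0.02 over all tested loci. The loci were ATCG00550 (1.01, SE 0.17, adjusted p = 0.00167), ATCG00220 (0.98, SE 0.22, adjusted p = 0.016), ATCG00560 (0.99, SE 0.25, adjusted p = 0.0293), ATCG00440 (1.09, SE 0.29, adjusted p = 0.0395) and ATCG01090 (1.19, SE 0.33, adjusted p = 0.0458). The calls of ATCG00550 and ATCG00220 held in each of 29 alternatives, while those of ATCG00560, ATCG00440 and ATCG01090 were lost in 5, 18 and 20 of them (adjusted p up to 0.0815, 0.0878 and 0.0958). Without WT_45d replicate 1 the count was 10, and with any other library left out it was between 2 and 4.

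Scaled to the plastid total, 6 loci had a larger share in the mutant at 45 DAS and 1 a smaller, where 25.9% of all tested loci were called. The median of all tested loci was -0.50 on this scale, so that percentage is no background for plastid loci. At 25 DAS none was called by edgeR, 2 had an unadjusted p under 0.05, and 0.655% of all tested loci were called. Those with a larger share were ATCG00110 (1.30), ATCG00120 (1.35), ATCG00420 (1.85), ATCG00430 (0.86), ATCG00440 (0.66) and ATCG01090 (0.74). ATCG01050 had the smaller share, at -0.78 (SE 0.24, adjusted p = 0.0217). It stood at 1651, 1970, 1759, 1715 and 1361 CPM in the old wild type and at 2319, 1710, 486.8, 1665 and 1061 in the old mutant, where the genotypes overlapped (-0.22, SE 0.26, on the scale of all loci). No locus was called for the interaction on this scale by edgeR, 8 had an unadjusted p under 0.05, and 2.79% of all tested loci were called. The median interaction of all tested loci was also shifted by the scaling, to -0.50. Without WT_45d replicate 1 the counts on this scale became 13 for genotype at 45 DAS and 4 for the interaction, and without mut_45d replicate 3 the latter was 1. With TMM among plastid loci the former was 14, of which 5 were higher.

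**Figure D4:**
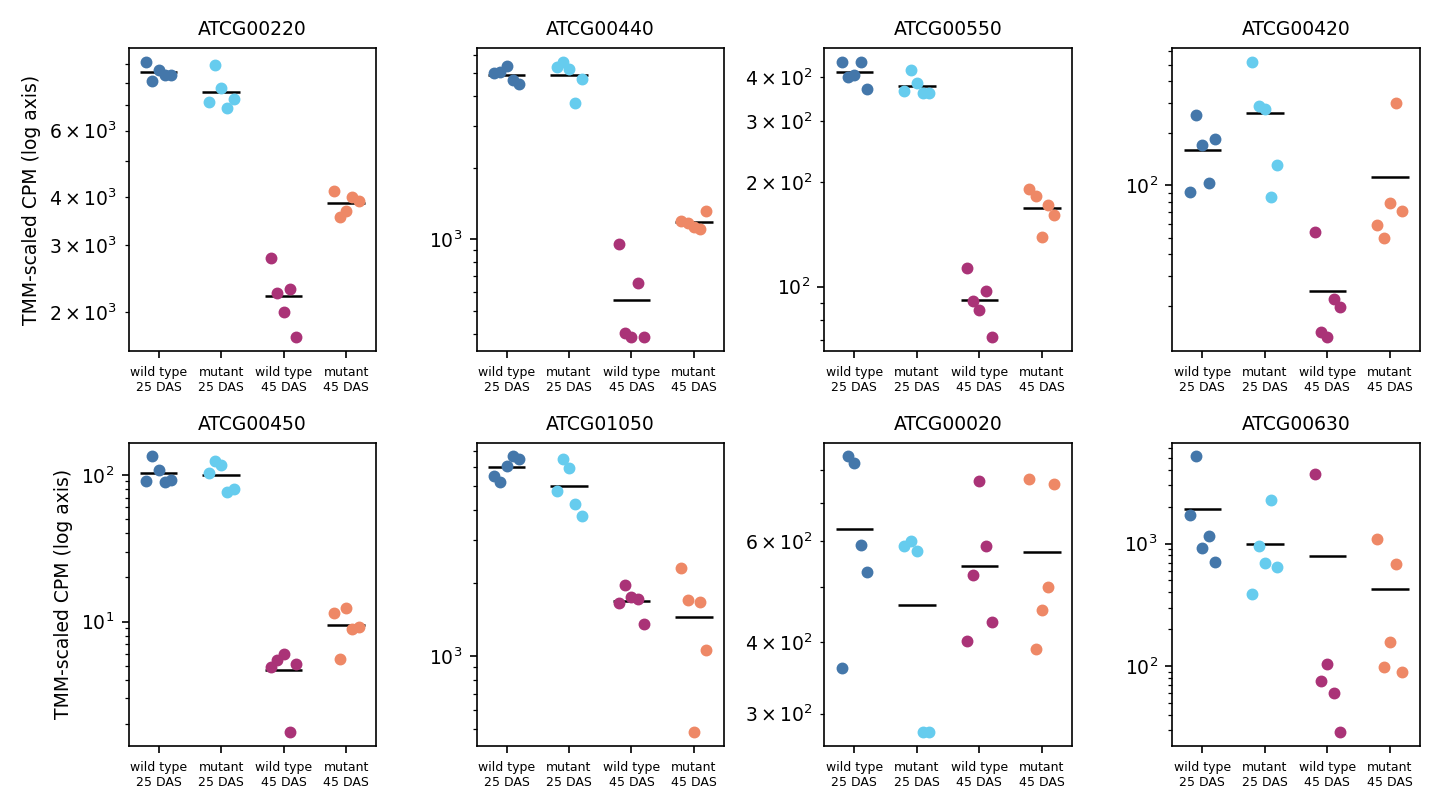
Levels of 8 plastid loci in each library (TMM-scaled CPM, log axis), 5 points per group with a line at the mean. ATCG00220, ATCG00440 and ATCG00550 separate by age and, at 45 DAS, by genotype, ATCG00020 overlaps in all groups, and single libraries stand apart for ATCG00420 and ATCG00630.

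The nuclear partners of the plastid genes were described from lists of 98 genes, all tested. Genes for subunits made in the cytosol fell with age in both genotypes, in 12 of 12 for photosystem I, 10 of 10 for photosystem II, 2 of 2 for cytochrome b6f, 3 of 3 for the ATP synthase and 4 of 4 for the Rubisco small subunit. For the NADH dehydrogenase-like complex 7 of 7 fell in the wild type and 6 of 7 in the mutant, and for nuclear-encoded plastid ribosomal proteins 34 of 34 in both. The medians were -4.03 and -2.78 for photosystem I, -3.68 and -2.59 for photosystem II, -3.74 and -3.31 for the ribosomal proteins and -5.58 and -5.28 for the Rubisco small subunit, in wild type and mutant. They stand beside -2.44 and -1.94 for the plastid loci. Of all tested loci, 34.5% were called lower with age in the wild type and 34.6% in the mutant, with medians of 0.07 and 0.06. RBCS1A, the small subunit gene with the smallest p, changed by -5.16 (SE 0.37) in the wild type and -4.50 (SE 0.36) in the mutant. None of the 98 genes was called between genotypes at 25 DAS, where 3.16% of all tested loci were called.

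At 45 DAS all 12 photosystem I genes and 8 of 10 photosystem II genes were higher in the mutant, with medians of 1.12 and 0.96, where 5.05% of all tested loci were called higher and their median was 0.0005. PSBQ2, an extrinsic protein of photosystem II, was higher by 1.42 (SE 0.19, adjusted p = 6.84e-05), and PSAE1, a photosystem I subunit on the stromal side, by 1.14 (SE 0.20, adjusted p = 0.000865). Also higher were 2 of 2 cytochrome b6f, 2 of 3 ATP synthase, 4 of 7 NADH dehydrogenase-like and 9 of 34 ribosomal protein genes, and 0 of 4 Rubisco small subunit genes. The interaction was called, with a smaller fall in the mutant, for 6 photosystem I, 4 photosystem II and 2 NADH dehydrogenase-like genes, beside 1.83% of all tested loci.

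Genes for plastid transcription and RNA handling were mixed. Their counts stand beside 34.5% (wild type) and 34.6% (mutant) of all tested loci called lower with age, 36.1% and 35.4% called higher, and 5.05% called higher in the mutant at 45 DAS. The sigma factors, which direct the plastid-encoded polymerase to promoters, fell for 4 of 6 in both genotypes, and 1 of 6 rose in the mutant. SIG1 changed by -2.31 (SE 0.15) in the wild type and -1.66 (SE 0.14) in the mutant and was higher in the mutant at 45 DAS by 0.76 (SE 0.15, adjusted p = 0.00199), as was SIG6 (0.76, SE 0.23, adjusted p = 0.035). All 12 genes for proteins of the plastid-encoded polymerase complex (PEP-associated proteins) fell in both genotypes, and 2 were higher in the mutant at 45 DAS. RPOTp, the nuclear-encoded polymerase of plastids, changed by -2.49 (SE 0.29) and -1.82 (SE 0.25). RPOTmp, its relative in both organelles, rose in the wild type by 2.55 (SE 0.46, adjusted p = 2.41e-05), and its interaction was -2.34 (SE 0.63, adjusted p = 0.0417). Its mean was 2.031 ± 1.526 CPM (SD, n = 5) in the young and 11.67 ± 2.895 in the old wild type. In the mutant it was 5.499 ± 1.946 and 6.407 ± 3.602. In the young wild type 3 counts correspond to 1.28 to 3.04 CPM of the library total, so both estimates rest on few counts. Of 6 genes for RNA processing and decay, 5 fell in each genotype and 1 rose in the wild type. CSP41A and CSP41B, which bind plastid RNA, were higher in the mutant at 45 DAS by 0.87 (SE 0.19, adjusted p = 0.00467) and 1.06 (SE 0.25, adjusted p = 0.00773).

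**Figure D5:**
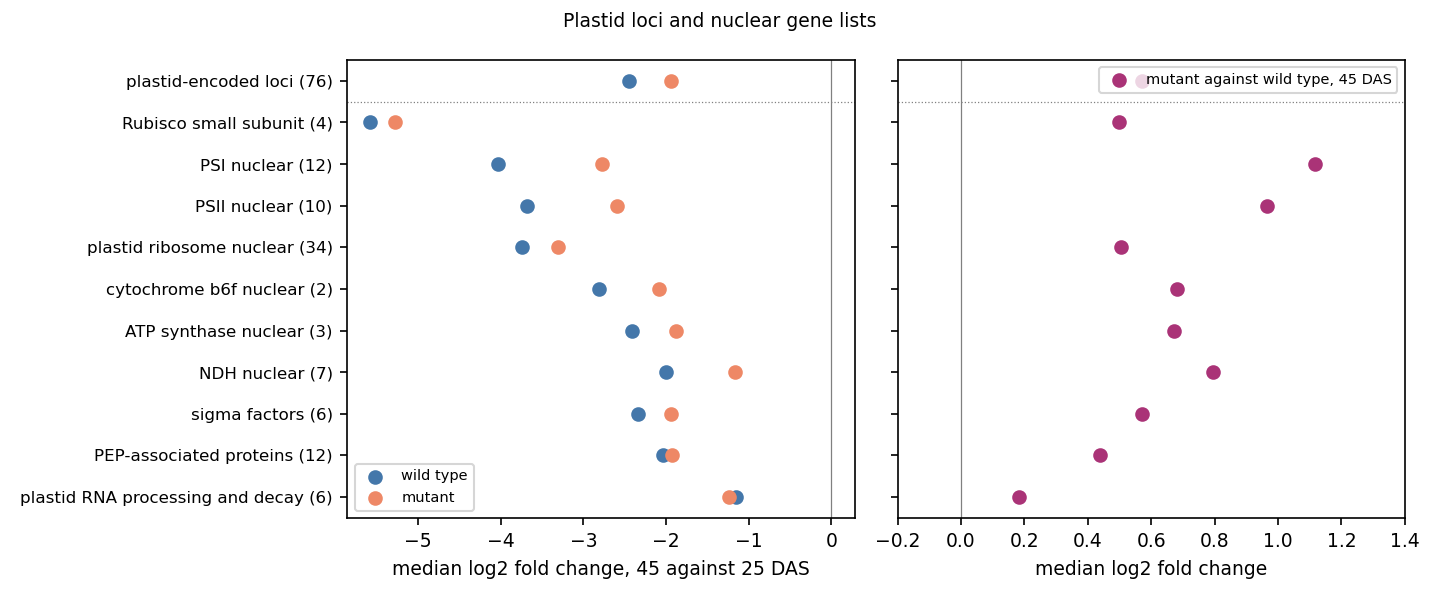
Median log2 fold change of the 76 well-counted plastid loci and of 10 lists of nuclear genes (number of genes in brackets) with age in each genotype (left) and for the mutant against the wild type at 45 DAS (right), all without error bars. The plastid median is -2.44 and -1.94 with age, beside -4.03 and -2.78 for photosystem I, and 0.57 at 45 DAS, beside 1.12.

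A marker of leaf senescence moved with genotype at 45 DAS. SAG12, a cysteine protease gene, had 3691, 3310, 717, 913 and 22297 counts in the old wild type and 76, 183, 323, 234 and 59 in the old mutant, with 0 or 1 in every young wild-type library and 14 to 92 in the young mutant. The wild-type library with the most SAG12, replicate 5, had the lowest plastid share (1.36%), and it was lowest of its group in 41 of 76 plastid loci. Replicate 1, with the second-highest SAG12 count, had the highest plastid share (3.36%) and was highest of its group in 57 of 76. Replicate 3, with the fewest SAG12 counts, had a share of 2.29%, so the shares did not follow the order of these counts. SAG12 counts were not scaled to library totals, and their order depends on depth. Replicate 3 had 717 of 637536 counts and replicate 4 had 913 of 906980. The part of leaf age or senescence stage in the plastid values was not tested.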

How the data were processed

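Leaf RNA was reverse transcribed with barcoded oligo(dT) primers and sequenced at transcript 3' ends. The authors deposited raw counts per locus, 1 file per library and not normalized. STAR 2.7.8a and genome build TAIR10 are named in the submitters' processing notes. The counting tool, the use of strand, the collapsing of molecular identifiers and the treatment of reads with several matches are not given in the sources used here.

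Groups and replicate numbers came from the sample titles. All 20 libraries entered 1 edgeR 4.0.16 model (R 4.3.3, limma 3.58.1) with a mean per group, after filterByExpr (14503 loci) and TMM scaling, with the robust quasi-likelihood F-test and Benjamini-Hochberg adjustment per comparison, threshold 0.05. The SE is the log2 fold change divided by the square root of F. A second fit of the same loci took the sum of plastid counts as library size. The 5 comparisons were genotype at each age, age in each genotype and their interaction. Tables were made with Python 3.11.15, pandas 2.3.3, NumPy 2.4.6 and SciPy 1.17.1 and figures with matplotlib 3.10.9. The procedure was checked on simulated data. No libraries were identical, and same-group pairs differed by more than sampling noise.

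Totals of 615317 to 2343212 counts set the precision: 3 counts, the limit that a count of 0 allows, are 1.28 to 4.88 CPM of the library total.

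Members and lists were chosen with earlier results of these data known. Named are the 12 well-counted loci with the highest mean CPM and, in each comparison and scaling, the 3 largest called changes per direction. Loci named in notes, those not called with age and all those called for genotype at 45 DAS or the interaction were added after values were seen. Of nuclear lists, those among the 2 smallest p per list that are named follow the same plan. Plastid loci were to be grouped by function from their symbols, but 0 of 133 identifiers matched a locus tag of the reference, so this was left out. Alternatives were DESeq2 size factors, the DESeq2 1.42.0 Wald test, nuclear loci only in the scaling, other filters, thinned counts, limma voom with a variance per group, only the groups compared, each library left out in turn, and the replicate number as a block. Library totals without TMM were added after the data were seen.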

Additional observations from a re-analysis of the deposited data

Results flagged for a closer look

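Among 156 groups of 5 libraries examined (plastid loci named in the text and library shares), 17 (10.9%) held a library far from the other 4, where chance flags about 5%. Loci shared libraries and some were added after their values were seen, so no excess over chance is drawn from this. The mitochondrial share of WT_45d replicate 3 was 0.470%. In the old mutant, replicate 5 stood apart for ATCG00120 (186.4 CPM), ATCG00490 (493.0 CPM) and ATCG01130 (499.6 CPM), replicate 4 for ATCG00420 (301.6 CPM), replicate 1 for ATCG00580 (17.0 CPM) and replicate 3 for ATCG00670 (189.4 CPM). In the old wild type, replicate 1 stood apart for ATCG00420 (53.8 CPM), ATCG00490 (69.3 CPM), ATCG00530 (109.2 CPM) and ATCG00630 (3723 CPM), all high, and replicate 4 was low for ATCG00450 (1.76 CPM). In the young groups the libraries were mutant replicate 2 for ATCG00200 (73.5 CPM), mutant replicate 3 for ATCG00270 (156.8 CPM) and ATCG00660 (196.7 CPM), wild-type replicate 3 for ATCG00530 (655.6 CPM) and wild-type replicate 2 for ATCG00630 (5152 CPM).

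The change with age differed between the genotypes, by the test of the interaction, for ATCG00220 (0.98), ATCG00440 (1.09), ATCG00550 (1.01), ATCG00560 (0.99) and ATCG01090 (1.19).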

How the results depend on the processing

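The count of plastid loci called at 45 DAS between genotypes was 15. It was 9 with only those groups in the fit and 9 with a variance for each group, and it ran from 9 to 29 with 1 library left out. DESeq2 gave 17. The interaction count of 5 became 3 with DESeq2 size factors and 3 with thinned counts, and ran from 2 to 10 with 1 library left out. At 25 DAS the count of 0 became 1 with only those groups in the fit, and 0 to 1 with 1 library left out. Counts with age kept within 1.5 times in every alternative run, from 74 to 76 in the wild type and 69 to 72 in the mutant with 1 library left out. Scaled to the plastid total, the genotype count at 45 DAS of 7 became 14 (5 of them higher) with TMM within plastid loci, and ran from 5 to 13 with 1 library left out, and the interaction count from 0 to 4. The plastid share without ATCG00220 was 5.80% in the young wild type and 2.56% in the old mutant.

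Estimates that turned were all of loci not called. With library totals in place of TMM they were ATCG00020 (0.45) and ATCG00350 (0.50) in the wild type and ATCG00270 (0.50), ATCG00490 (0.058) and ATCG00500 (0.29) in the mutant, with age. For ATCG00630 at 45 DAS the genotype estimate was 0.89 with a variance for each group and 0.27 with the replicate block. ATCG00350 in the mutant was -0.038 with a variance for each group. With 1 library left out, the estimates with age ran from -0.061 to 0.15 in the wild type and from -0.40 to 0.11 in the mutant for ATCG00270, and from -0.63 to 0.068 and from -0.15 to 0.28 for ATCG00350, and the genotype estimate of ATCG00630 at 45 DAS from -1.68 to 2.76. The cause was not tested.

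Deviations of same-numbered libraries correlated at -0.23 to 0.36. Between the genotypes at 45 DAS all 5 correlations were above 0 (0.018 to 0.36) but those of replicates 2 and 3 were under 0.1, so the number was not taken as a pairing. With the replicate block 76 and 70 plastid loci were called with age in wild type and mutant, 15 at 45 DAS, 5 for the interaction and 0 at 25 DAS. The 15 were not the same loci, since the calls of ATCG00420 and ATCG00500 were lost and 2 other loci were called.

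Low loci are limited by depth, since 3 counts are up to 4.88 CPM in the smallest library.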
